A study of Mus musculus with 4 samples.

Results

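The 41 genes described here act in germ cells, in the piRNA pathway and in meiosis, and were taken by symbol from a table of 32592 genes, in which all 41 were found. RNA had been sequenced as poly(A) libraries from CCE cells, which are mouse embryonic stem cells (strain 129/Sv) kept without feeders in serum and leukemia inhibitory factor. The cells carried either shRNAs (short hairpin RNAs) against Eif4a2, an RNA helicase that acts in translation, or control shRNAs, and all had been infected, selected for 3 days in 1 µg/mL puromycin and collected on day 4.5. There were 2 libraries labelled knockdown and 2 labelled control, called knockdown 1 and 2 and control 1 and 2 below, with 2 shRNAs of each kind named in the protocol (sheIF4A2-2 and sheIF4A2-3; shLuc and shEV) and none tied to a library in the labels. Levels are normalized counts, which are read counts scaled by the authors to an effective library size, and log2 changes are those of log2(normalized counts + 1), knockdown against control, which understates the change of low genes.

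The libraries held between 4604200 reads (control 2) and 13681765 reads (control 1), so that 3 reads were worth 0.679 normalized counts in control 2 and between 0.221 and 0.266 in the others. Eif4a2 was at 753 and 814 normalized counts in knockdown 1 and 2 and at 531 and 379 in control 1 and 2 (log2 change 0.80, SE 0.15, limma adjusted p = 0.0140), so the targeted transcript goes against its label. Higher and lower below therefore compare libraries by label only, knockdown with control, and no loss of Eif4a2 was measured. The labels do not tie the libraries to different cultures, and p-values describe the spread among these libraries alone, which may be technical.

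Germ cells use a set of genes that other cells keep silent. Stra8, Meioc and Ythdc2 open and hold the meiotic program, piRNAs bound to PIWI proteins silence transposons with the help of Tudor-domain proteins, and in meiosis chromosomes are held by special cohesins, joined by the synaptonemal complex and recombined after programmed breaks. In embryonic stem cells many of these genes are known to be repressed by DNA methylation and by a variant Polycomb complex that contains MGA, MAX and E2F6, with leaky expression of some.

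The germline, piRNA and meiosis genes chosen here were mostly higher in the libraries labelled knockdown. Of 37 members with enough reads to be tested, 12 rose, 1 fell and 24 did not pass (limma, Benjamini-Hochberg adjusted p below 0.05 over 14890 genes). Among all genes tested, 10.5% rose and 12.4% fell, against 32.4% and 2.7% of the members tested. The members that rose were Stra8, Ddx4 and Nanos3 among the regulators of meiotic entry and germ cell RNA, Piwil2, Tdrd1, Tdrd7 and Mov10l1 in the piRNA pathway, Sycp2, Syce1 and Rec8 of the synaptonemal complex and cohesin, Msh5 in recombination, and Taf7l, while Mei4, a recombination gene, fell. The median log2 change was 0.56 over the members tested and -0.01 over all genes tested. Members were chosen with earlier results of these data known. These shares and medians therefore describe the chosen genes and are no test of germline genes as a class. In a bulk sample, more cells with these transcripts and more transcript per cell cannot be told apart.

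**Figure D1:**
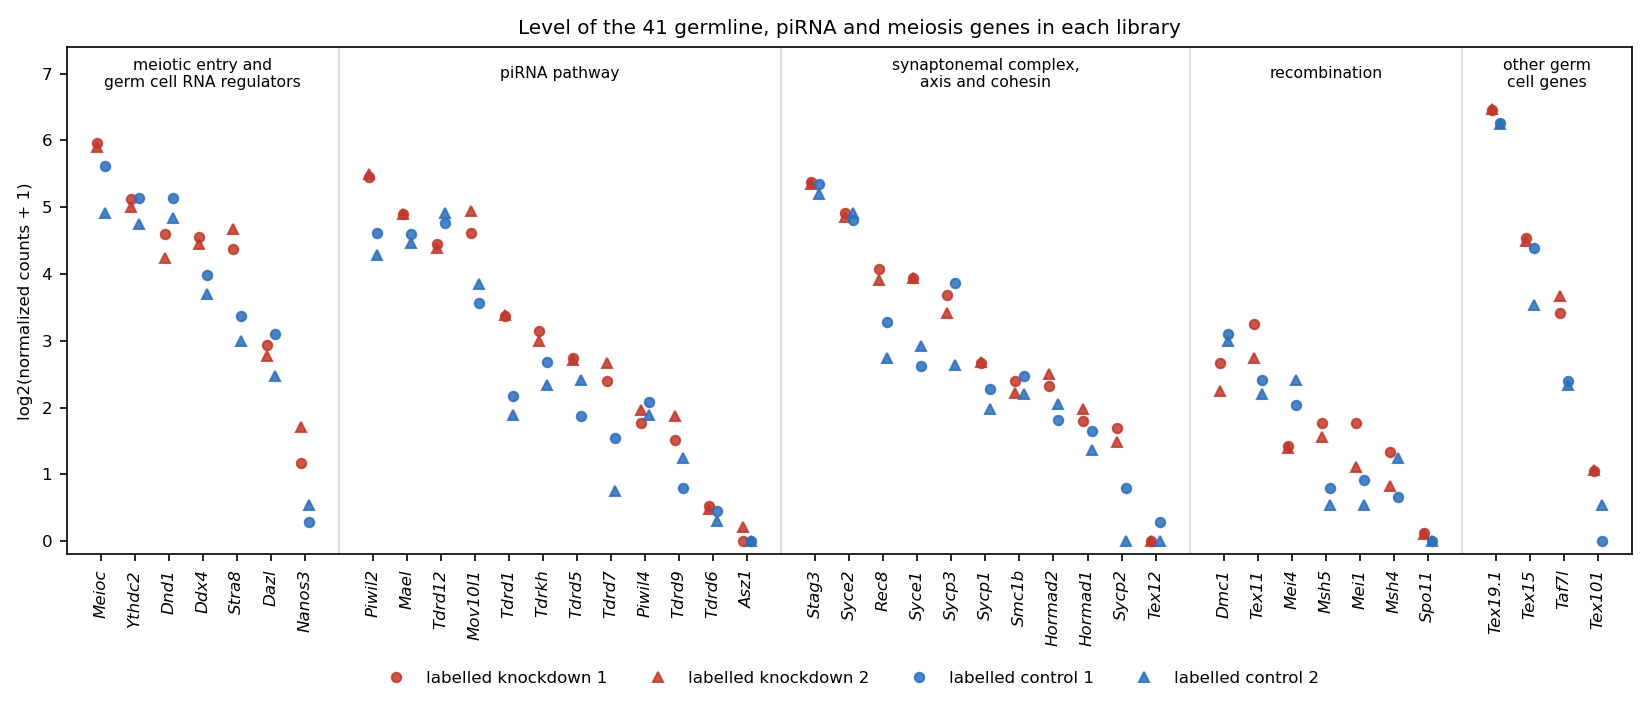
Level of each of the 41 members in each library as log2(normalized counts + 1), with genes grouped by function and ordered by mean level; red marks the libraries labelled knockdown and blue the libraries labelled control. The red points of Stra8, Piwil2, Tdrd1, Syce1 and Taf7l stand above both blue points, and those of Mei4 and Dmc1 below.

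Both knockdown libraries stood above both control libraries for 25 of the 37 members (67.6%) and below them for 4 (10.8%), and the groups overlapped for 8; among all genes tested these shares were 32.1% above and 34.6% below. Most members were low: 21 of the 37 had a mean below 10 normalized counts. Low genes as a class were also shifted. Among all 4674 genes tested with a mean below 10, 12.8% rose, 3.17% fell, 42.5% stood above both controls in both knockdown libraries and 19.2% below, with a median log2 change of 0.18, while 6 of the 21 low members rose, with a median of 0.59. In all, 5 members (Nanos3, Sycp2, Mei1, Msh5 and Tex101) passed the filter on low counts through the knockdown libraries alone, so that the filter largely fixed their direction. All 5 were low members, and Nanos3, Sycp2 and Msh5 were among the 6 low members that rose. The comparison of low members with low genes therefore holds genes favoured by the filter. Of the other 32, 9 rose (28.1%), 20 stood above both controls in both knockdown libraries, and the median was 0.51. Transcripts of the members were poor in GC. Of the 37 members, 16 lay in the fifth of genes lowest in GC, where the median log2 change of all genes was -0.14 and that of these members was 0.51. The part of GC content and of level in the result was not tested.

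The count of calls depended on single libraries. Without knockdown 1 and without knockdown 2, 7 and 3 members rose (Stra8, Piwil2 and Tdrd1 in both), and without control 1 and without control 2, 22 and 20 rose, the 12 named above among them each time. All genes that rose numbered 491, 259, 3784 and 3170 in the same order. The median log2 change of the members was 0.53, 0.58, 0.70 and 0.41 in the same order. A fit that leaves out a library takes its spread from the other group alone and assumes that the lone library varies like it, and the median absolute log2 difference over all genes was 0.198 between the controls and 0.0955 between the knockdowns. After thinning to equal totals of reads, 10 of the 12 were still called, without Ddx4 and Sycp2. In the authors' deposited table, 15 of the 37 members were higher and 2 lower at an adjusted p below 0.05, beside 12.2% and 12% of all genes tested, and all 12 that rose here were among the 15.

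**Figure D2:**
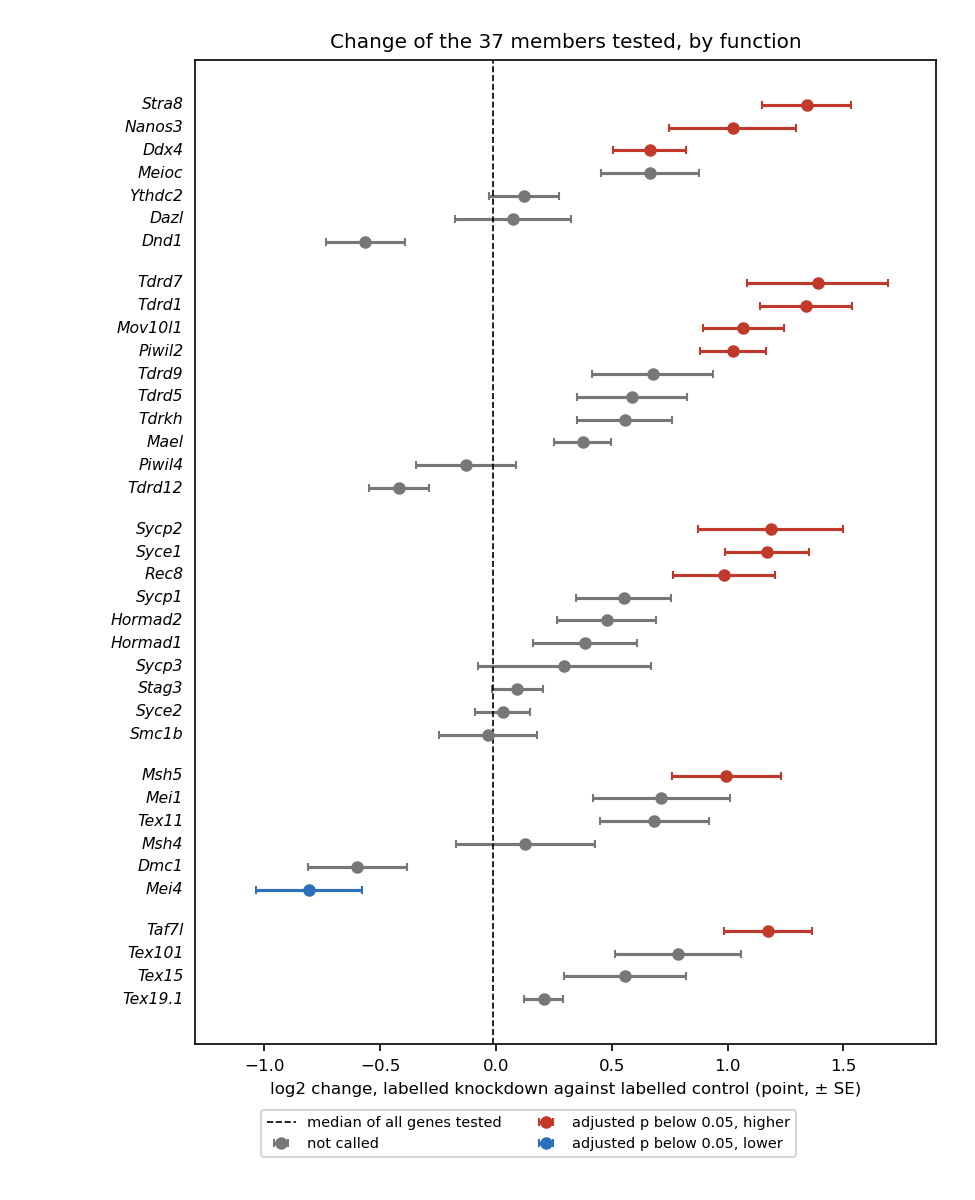
Log2 change of the 37 members tested (points) with its standard error (bars), grouped from top to bottom as meiotic entry and germ cell RNA regulators, piRNA pathway, synaptonemal complex with axis and cohesin, recombination, and other germ cell genes; the dashed line is the median of all genes tested. The 12 red points are the members that rose, and the blue point is Mei4 at -0.81.

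Promoters are printed, in order of p, for all 5 called members in which a promoter was found with letters of a motif bound by the known repressors of germline genes. RefSeq promoters on GRCm38.p6, 250 bases before to 50 bases after a start, were matched for 34 of the 41 members; Ythdc2, Dnd1, Piwil2, Tdrd6, Spo11, Tex11 and Tex15 were not matched. The motifs searched on both strands were CACGTG, an E box of the kind bound by MGA and MAX, and GGCGGGA, of the E2F kind. Capitals mark the matches, and sequences run 5′ to 3′ on the strand of the gene.
Tdrd1: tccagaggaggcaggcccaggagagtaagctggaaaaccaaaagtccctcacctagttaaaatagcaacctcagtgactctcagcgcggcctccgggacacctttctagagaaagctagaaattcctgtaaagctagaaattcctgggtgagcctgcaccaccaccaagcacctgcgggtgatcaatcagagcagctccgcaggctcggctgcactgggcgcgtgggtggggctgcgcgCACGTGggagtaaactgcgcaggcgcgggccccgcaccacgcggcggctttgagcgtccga
Taf7l: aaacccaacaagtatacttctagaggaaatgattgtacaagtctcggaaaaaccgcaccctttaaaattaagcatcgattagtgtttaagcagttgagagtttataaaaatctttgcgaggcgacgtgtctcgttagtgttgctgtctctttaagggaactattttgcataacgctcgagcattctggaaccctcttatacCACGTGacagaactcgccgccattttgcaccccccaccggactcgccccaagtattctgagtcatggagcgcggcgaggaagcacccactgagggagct
Mov10l1: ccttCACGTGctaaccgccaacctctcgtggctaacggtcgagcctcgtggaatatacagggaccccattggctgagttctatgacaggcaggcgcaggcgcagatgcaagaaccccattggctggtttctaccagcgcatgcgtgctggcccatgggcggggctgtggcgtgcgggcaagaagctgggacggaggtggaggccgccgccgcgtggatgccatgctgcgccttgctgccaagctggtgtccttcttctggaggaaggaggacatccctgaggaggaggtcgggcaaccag
Ddx4: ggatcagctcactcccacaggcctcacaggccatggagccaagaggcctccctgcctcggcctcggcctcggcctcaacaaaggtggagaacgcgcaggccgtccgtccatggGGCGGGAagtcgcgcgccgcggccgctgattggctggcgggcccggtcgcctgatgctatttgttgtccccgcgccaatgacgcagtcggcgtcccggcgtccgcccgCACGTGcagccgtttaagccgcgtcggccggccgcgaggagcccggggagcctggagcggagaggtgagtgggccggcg
Msh5: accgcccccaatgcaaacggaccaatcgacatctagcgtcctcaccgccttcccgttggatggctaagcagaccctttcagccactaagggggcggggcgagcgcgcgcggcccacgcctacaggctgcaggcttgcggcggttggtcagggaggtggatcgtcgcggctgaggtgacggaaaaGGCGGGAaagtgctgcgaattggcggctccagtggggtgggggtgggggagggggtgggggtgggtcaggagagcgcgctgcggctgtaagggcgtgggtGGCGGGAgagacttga
These windows lie at chr19:56825959-56826258 on the plus strand (Tdrd1), chrX:134476441-134476740 on the minus strand (Taf7l), chr15:88982744-88983043 on the plus strand (Mov10l1), chr13:112652261-112652560 on the minus strand (Ddx4) and chr17:35046573-35046872 on the minus strand (Msh5). The E box began 11 bases before the start in Tdrd1, 29 in Ddx4, 49 in Taf7l and 246 in Mov10l1. Ddx4 held an E2F-type match as well, 137 bases before the start, and Msh5 held a pair of E2F-type matches, 66 bases before the start and 34 after it, and no E box.

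An E box stood in a promoter of 12 of the 34 members matched (35.3%), against 8.09% of all 27025 genes in the promoter table. The E2F-type letters stood in 6 of 34 (17.6%) against 12.7%, and both motifs in 5 (14.7%) against 1.39%: Ddx4, Mael, Syce2, Tex12 and Hormad1. Member promoters were rich in CpG, with a median ratio of observed to expected CpG of 0.708 against 0.384 over all promoters. Among promoters with a ratio of at least 0.6, the E box was found in 13 of 26 member promoters (50%) and in 11.3% of 11765 promoters in all. The E box was found in 4 of the 11 matched members that rose (36.4%) and in 8 of the 23 others (34.8%), which include Asz1 and Tex12, not tested for change. Either motif was found in 5 of the 11 (45.5%) and in 8 of the 23 (34.8%). The matched members that rose and held neither motif were Stra8, Nanos3, Tdrd7, Sycp2, Syce1 and Rec8. A match is a description of letters, not of binding, and no test was made of these shares.

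**Figure D3:**
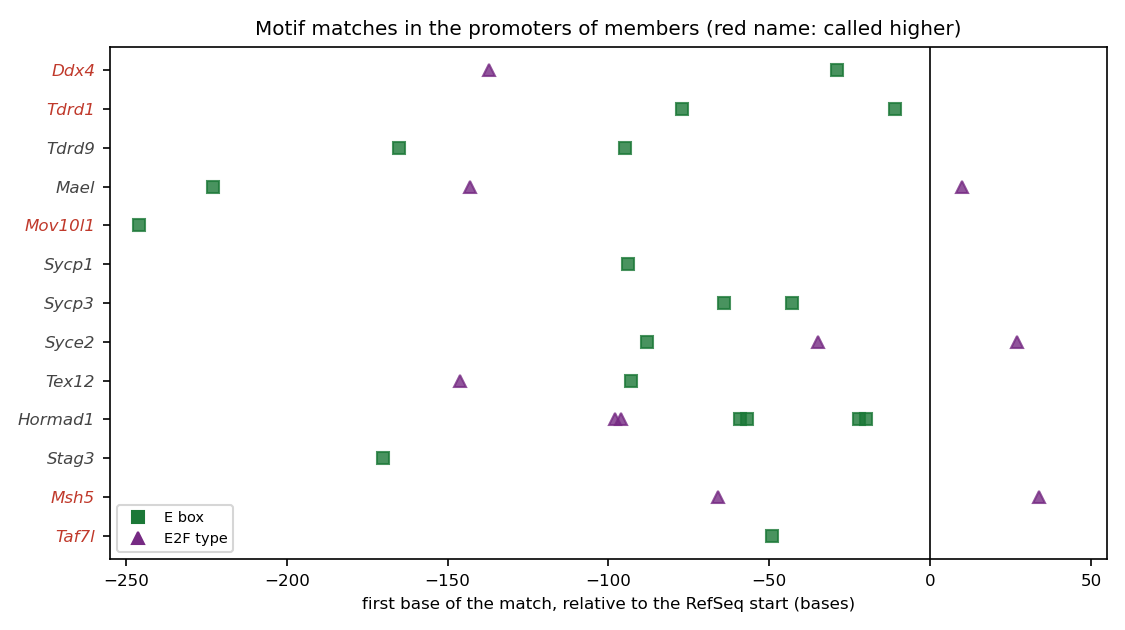
Position of each match to the E box (squares) and to the E2F-type letters (triangles) in the promoters of the 13 members with a match, in bases from the RefSeq start at 0; red names are members that rose. Tdrd1 and Hormad1 have several overlapping promoters and show the same match once for each; Tdrd1 has an E box 11 bases before a start and Ddx4 29 bases before its own.

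Of 7 regulators of meiotic entry and germ cell RNA, 3 rose, 0 fell in limma and 4 did not pass (median log2 change 0.66). The shares over all genes tested were 10.5% higher and 12.4% lower. Stra8, which retinoic acid induces to start meiosis, lies on chromosome 6 (34920163 to 34939344, plus strand, GRCm38, as for every gene position here). Stra8 stood at 19.8 and 24.6 normalized counts in knockdown 1 and 2 and at 9.35 and 7.01 in control 1 and 2. Stra8 was thus higher in both knockdown libraries, with means of 22.2 ± 3.40 and 8.18 ± 1.65 (SD, n = 2 each) and a log2 change of 1.34 (SE 0.19, limma adjusted p = 0.00684). It was called higher in each of 14 alternative fits and after thinning. Meioc, which acts in prolonging the meiotic program, was at 61.5 and 58.8 against 48.4 and 29.2, above both controls, and did not pass (log2 change 0.66, SE 0.21, limma adjusted p = 0.0617). Its log2 change was 1.02 without control 1 and 0.31 without control 2, and it was called in both. Ythdc2, the RNA helicase that works with Meioc, was at 33.8 and 31.2 against 34.1 and 26.0, and the groups overlapped (log2 change 0.12, SE 0.15). The log2 change of Ythdc2 was 0.31 without control 1 and -0.07 without control 2.

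Ddx4, the germ granule helicase known as Vasa (chromosome 13, 112598333 to 112652475, minus strand), was at 22.5 and 20.9 normalized counts in the knockdown libraries and at 14.8 and 12 in the controls. The means were 21.7 ± 1.07 and 13.4 ± 1.98 (SD, n = 2 each), a 1.62-fold difference (log2 change 0.66, SE 0.16, limma adjusted p = 0.0266). Ddx4 was not called without knockdown 1 (adjusted p = 0.206), without knockdown 2 (adjusted p = 0.171) or after thinning (adjusted p = 0.0616). Nanos3, an RNA-binding protein needed for the survival of primordial germ cells (chromosome 8, 84173731 to 84185217, minus strand), had 14 and 29 reads in the knockdown libraries and 3 and 2 in the controls. That made 1.24 and 2.26 against 0.221 and 0.453 normalized counts. The ratio of summed reads was 6.42 (exact 95% interval from 2.55 to 20.8; these intervals cover counting error only), with a log2 change of 1.02 (SE 0.27, limma adjusted p = 0.0381). Nanos3 was not called without knockdown 1 or 2 (adjusted p = 0.0704 and 0.369).

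Dnd1, an RNA-binding protein that protects germ cells, stood the other way. Its level was 23.2 and 18.0 normalized counts for the knockdown libraries and 34.1 and 27.6 in the controls, which did not overlap, and it missed the threshold (log2 change -0.56, SE 0.17, limma adjusted p = 0.0518). Dnd1 was called lower by edgeR on the recovered reads (adjusted p = 0.0341), after thinning (limma adjusted p = 0.0428) and with the replicate block (limma adjusted p = 0.00436). It was not called by DESeq2 (adjusted p = 0.0673) or with library size only (limma adjusted p = 0.113). Its log2 change was -0.74 and -0.39 without knockdown 1 and 2, and -0.42 and -0.71 without control 1 and 2. Its exons overlap those of Wdr55 by 140 bases on the other strand; whether reads were counted by strand is not given in the sources used here, and Wdr55 did not pass (log2 change -0.05). Dazl, a translational regulator of germ cells, was at 6.66 and 5.84 against 7.58 and 4.53, with overlapping groups (log2 change 0.07, SE 0.25).

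In the piRNA pathway, 4 of the 10 members tested rose, 0 fell in limma and 6 did not pass (median log2 change 0.63). Beside these, 10.5% of all genes tested rose and 12.4% fell. Piwil2, known as MILI, is a PIWI protein that binds and amplifies piRNAs (chromosome 14, 70372477 to 70429383, minus strand). Its level was 43.0 and 44.2 normalized counts in knockdown 1 and 2 and at 23.6 and 18.6 in control 1 and 2. Both knockdown libraries stood far above the controls relative to their spread, with means of 43.6 ± 0.834 and 21.1 ± 3.53 (SD, n = 2 each; log2 change 1.02, SE 0.14, limma adjusted p = 0.00616). The other PIWI gene of the set, Piwil4 (MIWI2), which acts in the nucleus, was low and overlapped between groups, at 2.40 and 2.88 against 3.24 and 2.72 (log2 change -0.13, SE 0.22). Piwil2 was called in each of the 14 alternative fits and after thinning.

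Tudor-domain proteins bind methylated PIWI proteins and assemble the germ granule. Tdrd1 (chromosome 19, 56826209 to 56870012, plus strand), a partner of MILI, was at 9.32 and 9.42 normalized counts in the knockdown libraries and at 3.53 and 2.72 in the controls. Its means of 9.37 ± 0.0705 and 3.12 ± 0.578 (SD, n = 2 each) gave a 3.00-fold difference (log2 change 1.34, SE 0.20, limma adjusted p = 0.00738), called in each of the 14 alternative fits and after thinning. Tdrd7 (chromosome 4, 45965334 to 46034761, plus strand), which shapes germ granules and is also known from the lens, was at 4.26 and 5.37 against 1.91 and 0.679, where control 2 held 3 reads. The controls differed from each other more than the knockdown libraries did, and the log2 change was 1.39 (SE 0.30, limma adjusted p = 0.0212). Without knockdown 2, Tdrd7 was not called (adjusted p = 0.11).

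The other Tudor genes among the members were not called. Tdrd9, a helicase of the pathway, had 21 and 34 reads against 10 and 6, with the summed ratio at 2.57 (exact 95% interval from 1.45 to 4.8). Its log2 change was 0.68 (limma adjusted p = 0.104), with 0.46 without control 1 and 0.90 without control 2. Tdrkh, a mitochondrial Tudor protein that helps trim piRNAs, was at 7.81 and 7.01 against 5.45 and 4.07 (log2 change 0.55, SE 0.21, limma adjusted p = 0.0921). Its log2 change was 0.73 without control 1 and 0.38 without control 2. Its exons overlap those of Oaz3 by 2255 bases on the other strand, but Oaz3 had at most 3 reads in a library. Tdrd5, which acts with piRNA precursors, was at 5.68 and 5.53 against 2.65 and 4.3 (log2 change 0.59, limma adjusted p = 0.117). Without control 1 its log2 change was 0.32, and without control 2 it was 0.86. Tdrd12 stood the other way, at 20.9 and 19.9 against 26.1 and 29.2, and missed the threshold (log2 change -0.42, SE 0.13, limma adjusted p = 0.0546). This gene of secondary piRNA production was called lower by edgeR (adjusted p = 0.0495) and with the replicate block (limma adjusted p = 0.038). It was not called by DESeq2 (adjusted p = 0.211) or after thinning (limma adjusted p = 0.246). Its log2 change was -0.45 and -0.39 without knockdown 1 and 2, and -0.50 and -0.34 without control 1 and 2.

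Mov10l1, an RNA helicase that feeds precursor transcripts into piRNA production (chromosome 15, 88982909 to 89055152, plus strand), was at 23.4 and 29.7 normalized counts in the knockdown libraries and at 10.9 and 13.4 in the controls. The means were 26.6 ± 4.40 and 12.1 ± 1.74 (SD, n = 2 each), a 2.19-fold difference (log2 change 1.07, SE 0.17, limma adjusted p = 0.00940), which was not called without knockdown 2 (adjusted p = 0.0804). Mael, a germ granule protein of transposon silencing, was at 28.9 and 29.0 against 23.2 and 21.0. Its groups did not overlap, and the change did not pass (log2 change 0.37, SE 0.12, limma adjusted p = 0.0676), though it did with library size as the only scaling and without either control. Tdrd6, a germ granule scaffold, and Asz1, a mitochondrial partner of the pathway, had at most 5 reads in a library and were not tested.

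Among 11 genes of the synaptonemal complex, the chromosome axis and cohesin, 10 were tested, 3 rose, 0 fell in limma and 7 did not pass (median log2 change 0.43). Of all genes tested, 10.5% rose and 12.4% fell. Syce1, a protein of the central element of the synaptonemal complex (chromosome 7, 140777229 to 140787852, minus strand), was at 14.4 and 14.3 normalized counts in the knockdown libraries and at 5.15 and 6.56 in the controls. These groups stood well apart, with means of 14.4 ± 0.0392 and 5.86 ± 0.997 (SD, n = 2 each; log2 change 1.17, SE 0.18, limma adjusted p = 0.00835), and were not called apart without knockdown 2 (adjusted p = 0.0535). Its neighbour in the central element, Syce2, was at 29.3 and 28.0 against 27.0 and 29.2, and the groups overlapped (log2 change 0.03, SE 0.12). The third central element gene, Tex12, had 0 reads in 3 libraries and 3 reads in control 1, and was not tested.

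Sycp2, a protein of the lateral element (chromosome 2, 178345293 to 178407685, minus strand), had 25 and 23 reads in the knockdown libraries and 10 and 0 in the controls. The ratio of summed reads was 3.59 (exact 95% interval from 1.79 to 7.95), with a fitted log2 change of 1.19 (SE 0.31, limma adjusted p = 0.0360). Among the members that rose, Sycp2 kept its call in the fewest of the 14 alternative fits without thinning, 8 (DESeq2 gave it no adjusted p), and lost it after thinning (adjusted p = 0.0533), with an adjusted p of 0.156 without knockdown 1 and 0.117 without knockdown 2. Sycp3, which forms the lateral element with Sycp2, was at 11.8 and 9.66 against 13.6 and 5.20, so that the controls enclosed the knockdown libraries (log2 change 0.29, SE 0.37). Without control 1 its log2 change was 0.91, and without control 2 the direction was reversed, at -0.32. Its exons overlap those of Chpt1 by 660 bases on the other strand, and Chpt1 was likewise lowest in control 2 (32.5 and 31.3 against 29.7 and 14.7).

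Rec8, the cleavable cohesin subunit of meiosis (chromosome 14, 55618037 to 55625395, plus strand), was at 15.9 and 14.0 normalized counts against 8.76 and 5.66. The means were 15.0 ± 1.33 and 7.21 ± 2.19 (SD, n = 2 each), a 2.07-fold difference (log2 change 0.98, SE 0.22, limma adjusted p = 0.0230). Rec8 was not called without knockdown 1 or 2 (adjusted p = 0.117 and 0.0797). The other meiotic cohesin subunits did not show such values: Stag3 was at 40.8 and 39.7 against 39.7 and 35.8 (log2 change 0.09, SE 0.11), and Smc1b had a log2 change of -0.03 (SE 0.21). Sycp1, the transverse filament, and the axis proteins Hormad1 and Hormad2 were low, with means between 1.86 and 5.39 in the groups. Their log2 changes were 0.55, 0.38 and 0.48, none passed, and in each the knockdown libraries stood above both controls. Sycp1 was called without control 1 (adjusted p = 0.0045) and Hormad2 without control 2 (adjusted p = 0.0233).

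Of 6 recombination genes tested, 1 rose, 1 fell and 4 did not pass (median log2 change 0.40), near the 10.5% that rose and 12.4% that fell among all genes tested. Msh5, which stabilizes crossover intermediates (chromosome 17, 35028605 to 35046745, minus strand), had 27 and 25 reads in the knockdown libraries and 10 and 2 in the controls. It passed the filter through the knockdown libraries alone. Its ratio of summed reads was 3.24 (exact 95% interval from 1.71 to 6.66), with a fitted log2 change of 0.99 (SE 0.24, limma adjusted p = 0.0272), and it was not called without knockdown 1 or 2 (adjusted p = 0.219 and 0.157). Its partner Msh4 had 17 and 10 reads against 8 and 6, with overlapping levels (log2 change 0.13, SE 0.30). Mei4, needed for the programmed breaks (chromosome 9, 81863670 to 82206007, plus strand), fell. Its level was 1.69 and 1.64 normalized counts for the knockdown libraries and at 3.09 and 4.3 in the controls, with a log2 change of -0.81 (SE 0.23, limma adjusted p = 0.0439). Its call was lost without knockdown 1 (adjusted p = 0.225) or knockdown 2 (0.293), in DESeq2 (0.216), after thinning (0.356), when scaled by library size only (0.0617) or by the upper quartile (0.05), with a pseudocount of 0.25 (0.0503) and with no filter (0.0769).

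Dmc1, the meiotic recombinase, was at 5.33 and 3.74 normalized counts in the knockdown libraries and at 7.58 and 7.01 in the controls. Both knockdown libraries stood below both controls, and the change did not pass (log2 change -0.60, SE 0.21, limma adjusted p = 0.0842). It did not pass in edgeR (adjusted p = 0.0747), in DESeq2 (adjusted p = 0.288) or after thinning (limma adjusted p = 0.113) either. The log2 change of Dmc1 was -0.81 and -0.39 without knockdown 1 and 2, and -0.55 and -0.65 without control 1 and 2. Tex11, an X-linked gene of crossover formation, was at 8.52 and 5.68 against 4.34 and 3.62 (log2 change 0.68, SE 0.24, limma adjusted p = 0.0763), and was called without either control. Mei1, another gene of break formation, had 27 and 15 reads against 12 and 2, with the summed ratio at 2.24 (exact 95% interval from 1.20 to 4.44). It did not pass (limma adjusted p = 0.124), and its log2 change was 0.90 without control 1 and 0.53 without control 2. Spo11, which makes the breaks, had 1 read in each knockdown library and 0 in the controls, and was not tested.

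The remaining 4 germ cell genes were all above the controls in both knockdown libraries, as were 32.1% of all genes tested. Of the 4, 1 rose (median log2 change 0.67), beside 10.5% of all genes tested. Taf7l, a germ cell form of a subunit of the general transcription factor TFIID (chromosome X, 134460118 to 134476490, minus strand), was at 9.68 and 11.8 normalized counts against 4.27 and 4.07. Its means of 10.7 ± 1.47 and 4.17 ± 0.138 (SD, n = 2 each) gave a 2.57-fold difference (log2 change 1.17, SE 0.19, limma adjusted p = 0.00916), not called without knockdown 2 (adjusted p = 0.105). Tex19.1, a regulator of transposons that is known to be active in embryonic stem cells, was at 86.6 and 87.3 against 75.6 and 74.9. The groups of Tex19.1 were tight and did not overlap, and the small change did not pass (log2 change 0.21, SE 0.08, limma adjusted p = 0.118), except without either control and with library size only. Tex15, which acts in transposon silencing, was at 22.4 and 21.6 against 19.9 and 10.6 and did not pass (log2 change 0.56, SE 0.26, limma adjusted p = 0.162). Without control 1 its log2 change was 0.98, and without control 2 it was 0.13. Tex101, a surface protein of testicular germ cells, had 12 and 14 reads against 0 and 2, with the summed ratio at 9.71 (exact 95% interval from 2.43 to 84.4). Its log2 change was 0.79 (limma adjusted p = 0.0762), and it was called by edgeR (adjusted p = 0.0449). Without control 1 the log2 change was 0.52, and without control 2 it was 1.055.

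Per kilobase of exon, the levels of the members spanned a wide range. Tex19.1 was highest at 43.3 normalized counts per kilobase as a mean over the 4 libraries, followed by Mael at 14.7, Syce2 at 14.4, and Meioc and Dnd1 at 10.7 each. Of the members that rose, Stra8 stood highest at 8.43 per kilobase, then Syce1 at 6.92 and Piwil2 at 6.11. Msh5 at 0.25 and Sycp2 at 0.199 were the lowest of those that rose. Spo11, at 0.0106, was the lowest of all 41.

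Other germline and meiosis genes, listed beside the members, stood nearer to the background. Of 30 tested from a list of 49, 4 rose (13.3%), 2 fell and 24 did not pass, with a median log2 change of 0.11. The background over all genes tested was 10.5% higher and 12.4% lower. Rec114, a partner of Mei4 in break formation, rose from 3.61 and 3.62 in the controls to 9.85 and 8.95 (log2 change 1.17, SE 0.18, limma adjusted p = 0.00860). Cpeb1, a regulator of germ cell mRNA (log2 change 1.10), the Tudor gene Rnf17 (log2 change 0.54) and the PIWI gene Piwil1 (log2 change 0.84) rose too, Rnf17 and Piwil1 being named after their values were seen. Hsf2bp, a recombination gene, fell from 86.6 and 80.6 to 44.8 and 43.8 (log2 change -0.90, SE 0.09, limma adjusted p = 0.00368), and Tex14, of germ cell bridges, fell as well (log2 change -0.85). The number of genes of this list that rose moved with the library left out, as did that of all genes. Whether the members differ from this list was not tested.

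**Figure D4:**
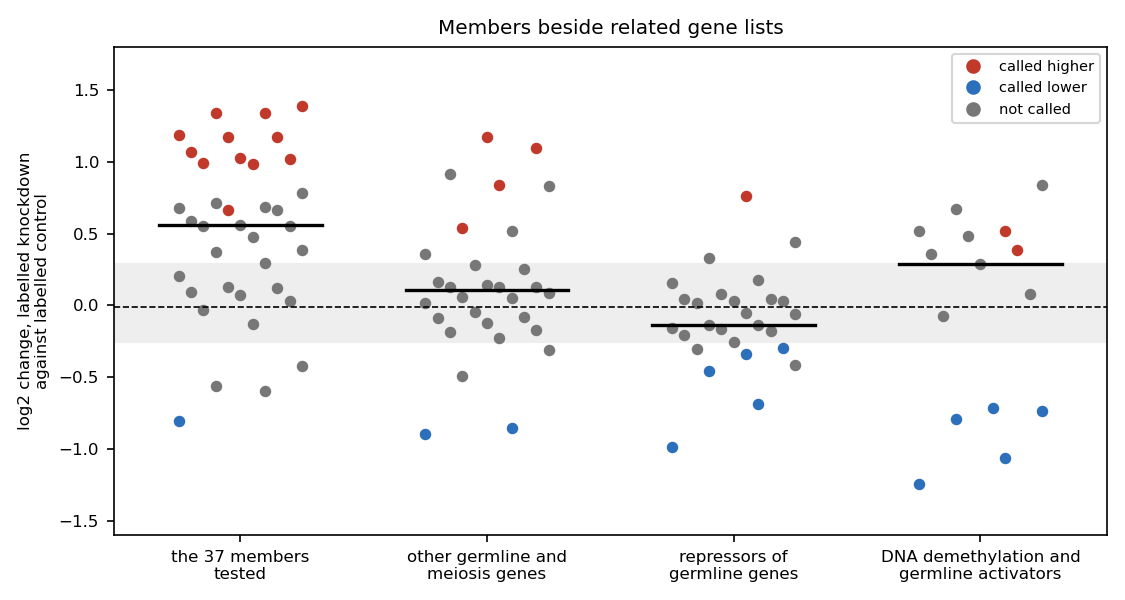
Log2 change of each gene tested among the members and in 3 related lists; black bars are medians, the dashed line is the median of all genes tested and the grey band holds the middle 50% of them. The members have a median of 0.56, the other germline and meiosis genes 0.11, the repressors -0.14 and the list of demethylation genes and activators 0.29.

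Of 27 genes known to repress germline genes, 1 rose, 5 fell and 21 did not pass (median log2 change -0.14), beside 10.5% higher and 12.4% lower among all genes tested. In 12 of them both knockdown libraries stood below both controls, and in 4 above, beside 34.6% below and 32.1% above among all genes tested. Mga, whose protein is part of the variant Polycomb complex, fell from 389 and 384 to 293 and 271 normalized counts, a log2 change of -0.46 (SE 0.08, limma adjusted p = 0.0113). Its partners Max (log2 change 0.17), E2f6 (log2 change -0.06), Pcgf6 (log2 change 0.03) and L3mbtl2 (log2 change 0.08), named after their values were seen, did not pass. Wdr5 fell (log2 change -0.34), as did Kdm5c (log2 change -0.29) and Cbx3 (log2 change -0.69), a gene of heterochromatin protein 1 whose processed copies can share reads; Kdm5c and Cbx3 were named after their values were seen. Among DNA methylation genes, the cofactor Dnmt3l fell from 173 and 250 to 108 and 101 (log2 change -0.99, SE 0.16, limma adjusted p = 0.00938) and the enzyme gene Dnmt3b rose from 105 and 147 to 208 and 214 (log2 change 0.76, SE 0.15, limma adjusted p = 0.0157), while Dnmt1, named after its values were seen, did not pass (log2 change 0.16). With library size only, 3 repressors rose and 2 fell. The counts of this list also moved with the library left out, as did the count of all genes that rose.

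Of 15 genes of DNA demethylation and germline activation, 2 rose, 5 fell and 8 did not pass (median log2 change 0.29). Over all genes tested, 10.5% were higher and 12.4% lower. The 5-methylcytosine oxidase genes Tet1 and Tet2 fell, Tet1 from 765 and 781 to 474 and 452 normalized counts with a log2 change of -0.74 (SE 0.08, limma adjusted p = 0.00378), whereas Tet3 (log2 change 0.39) rose, as did Smad5 (log2 change 0.52), a transducer of BMP signals; both were named after their values were seen. Bmp4, a signal that induces primordial germ cells, fell from 66.8 and 74.0 to 29.3 and 28.7 (log2 change -1.25, SE 0.10, limma adjusted p = 0.00256). Zfp42, an embryonic stem cell marker that was also placed in this list, fell too (log2 change -1.06) and is counted again among the markers below. Of the retinoic acid receptor genes, chosen after their values were seen, Rarg fell (log2 change -0.79) and Rara did not pass (log2 change -0.08). With library size only, 4 rose and 5 fell, and the count that rose also moved with the library left out.

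The libraries carried the markers of embryonic stem cells, with Pou5f1 between 1841 and 2305 normalized counts, though 4 of 8 such markers (Zfp42, Klf4, Esrrb and Sox2) fell and 0 rose in limma. For this and the other counts of marker calls here, the shares over all genes tested were 10.5% higher and 12.4% lower. Primordial germ cell markers were mostly shared with stem cells: of 6 tested, Ifitm3 rose and 5 did not pass. All 6 had a log2 change above 0, and the median was 0.50, near that of the members. Both knockdown libraries stood above both controls for 4 of the 6, beside 32.1% of all genes tested, and Nanos2 had at most 1 read in a library. Markers of spermatids were near 0, with a summed level of at most 0.533 over 9 genes, and those of oocytes summed to between 2.13 and 3.62 over 8 genes. Spermatogonium markers summed to 1106 and 1079 in the knockdown libraries and 1287 and 1437 in the controls. The largest parts of these sums were Sall4 (422 and 420 against 478 and 607) and Etv5 (349 and 328 against 468 and 512). Of 10 tested, 0 were higher and 2 lower (Etv5 and Id4) in limma, and 5 had a log2 change above 0. Zbtb16, a defining marker, was between 0.178 and 1.13. Of 4 Sertoli cell markers tested, Dhh rose, and Fshr was at 0. Fibroblast markers summed to 1262 and 1278 in the knockdown libraries and 1453 and 1312 in the controls, of which Fn1, which fell, made up 807 and 772 against 1089 and 965. Of 8 tested, 3 rose (Cald1, Col1a1 and Pdgfrb), and the median log2 change was 0.54, beside 0.56 for the members. Both knockdown libraries stood above both controls for 5 and below them for 2, beside 32.1% and 34.6% of all genes tested. Dcn, Lum and S100a4 were at 0. Markers of the 2-cell-like state summed to 7.28 and 10.8 in the knockdown libraries and 0.368 and 0.453 in the controls. The 3 tested (Zscan4d, Usp17le and Gm8300, of families with near-identical copies) were called higher, but each had at most 3 reads in a control library and passed the filter through the knockdown libraries alone, so that the filter fixed their direction. These counts of marker calls moved with the library left out, as did the count of all genes that rose. The part of these cells and states in the change of the germline genes was not tested.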

How the data were processed

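Poly(A) RNA from 1 µg of total RNA was sequenced as single-end reads of 100 bp, per the labels' protocols. The submitters' processing notes list the build mm9 and, with no roles, edgeR 3.26.8, HTSeq 0.11.2, SAMtools 1.9 and Bowtie2 2.3.4.3; annotation and strand setting were not given in the sources used here. In the deposited file, the signal is gene counts scaled to an effective library size, with 100% of values whole multiples of 1 read within 0.001, so reads were recovered. The authors' deposited comparison holds log2 fold changes, a likelihood ratio score and p-values with their adjusted values, per the file headers.

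Groups came from sample labels, and every per-sample column was used. Reads decided which genes were tested (filterByExpr in edgeR 4.0.16, minimum count 10), which left 14890. limma 3.58.1 in R 4.3.3, with a variance trend, was fitted to log2 of the signal plus 1. Tests were two-sided, adjusted by Benjamini-Hochberg over all genes tested, with calls below 0.05. An exact test of 2 against 2 cannot go below 0.333. Replicates were not duplicates: their chi-square per degree of freedom was 1.77 (knockdown) and 10.4 (control). Alternatives were edgeR, DESeq2 1.42.0, other scalings, pseudocounts and filters, no variance trend, a replicate block, each library left out and, chosen after seeing the data, thinning. Ratios of summed reads carry exact 95% intervals; floors are 3 reads, and both cover counting error only.

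Members and lists were chosen with earlier results of these data known. The rule for named genes gave per-library values for called members, members with a mean of at least 5 and members with at least 20 reads and a ratio of at least 2; the rest are given by range or in brief. Of each list it took up to 4 called genes by smallest p, and others are marked as named after their values were seen. The lists' symbols gave 44 of 49 other germline genes and 6 of 9 2-cell-like markers in the table; each other list was matched in full. Gene positions and exon lengths are from GENCODE M21 (GRCm38), a different build from mm9.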

Additional observations from a re-analysis of the deposited data

How the results depend on the processing

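The median log2 change of the members stayed positive in all settings run, from 0.38 with a pseudocount of 3 to 0.70 without control 1. Leaving out a library in turn, it ranged from 0.41 to 0.70, members that rose from 3 to 22 and members that fell from 0 to 4. By function, those that rose then ranged from 1 to 5 (meiotic entry and germ cell RNA), 2 to 7 (piRNA pathway), 0 to 5 (synaptonemal complex, axis and cohesin), 0 to 3 (recombination) and 0 to 3 (other germ cell genes). Members that fell, 1 as reported, numbered 3 in edgeR and with the replicate block, and 0 in DESeq2, with library size only, with upper-quartile scaling, with a pseudocount of 0.25 and with no filter on low counts. Other germ cell genes that rose, 1 as reported, numbered 2 in edgeR and with library size only and 3 with the replicate block. Recombination genes that rose numbered 0 in DESeq2, which gave no adjusted p for Msh5, Nanos3 and Sycp2 among the members that rose, and 2 with the replicate block. Replicate numbers are shared by the groups without a stated pairing, and same-numbered deviations had a correlation of 0.0356 across genes; with the replicate block 16 members rose, the 12 as reported among them. Eif4a2 kept its log2 change of 0.80 without a variance trend and was not called (adjusted p = 0.0581), and ranged from 0.56 to 1.04 with a library left out. With library size only, the median of all genes moved from -0.01 to 0.10, all genes that fell numbered 996 in place of 1851, and 14 members rose. All genes that rose numbered 967 in DESeq2 in place of 1567, and 864 fell without a variance trend. The causes were not tested. Depth limits Tdrd6, Asz1, Tex12 and Spo11, whose changes were not detectable.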

Other observations

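Of the 37 tested, 26 were higher in control 1 than in control 2, as were 53.1% of all genes tested, with a median log2 difference of 0.26 (control 1 minus control 2), against 0.02 over all genes tested and 0.08 over genes tested with a mean below 10. Between the knockdown libraries, 22 of the 37 were higher in knockdown 1, as were 52.2% of all genes tested, and the members' median difference was 0.04 (knockdown 1 minus knockdown 2). Examples of members higher in control 1, chosen after their values were seen, were Meioc (48.4 against 29.2 normalized counts), Tex15 (19.9 against 10.6) and Sycp3 (13.6 against 5.20). Among the members that rose, Tdrd7 (1.91 against 0.679) and Sycp2 (0.736 against 0) showed it at few reads. Of those that rose, Nanos3, Mov10l1 and Syce1 were higher in control 2. Eif4a2 was also higher in control 1 (531) than in control 2 (379). Which control shRNA each library carried is not in the labels.

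Tdg, a DNA glycosylase of active demethylation, was at 2.87 normalized counts in control 1 (39 reads) and 28.7 in control 2 (127 reads), and at 17.8 and 18.5 in the knockdown libraries. Its log2 change of 0.84 (SE 0.79, limma adjusted p = 0.476) therefore says little about the groups. Tdg was chosen after its values were seen.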
